A study of Saccharomyces cerevisiae with 7 samples.

Results

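Binding of 5 Puf proteins was examined on 4 mRNAs of plasma membrane transporters in *Saccharomyces cerevisiae*. FCY2 (YER056C) encodes the purine-cytosine permease, FUR4 (YBR021W) the uracil permease, FUI1 (YBL042C) the uridine permease and PHO84 (YML123C) the high-affinity phosphate transporter. FUI1 carries a nucleoside, so the first 3 are a group of nucleobase and nucleoside permeases. The genes were chosen by name, with their binding values already known, and every called site that carried one of the 4 names was taken. They are 4 of the 6550 genes in the mRNA table, and they held 15 of the 10580 called sites.

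The sites came from CLIP, in which RNA crosslinked to a protein is recovered with it and sequenced. Puf1, Puf2, Puf4, Puf5 and Puf6 each had 1 library, from a MATa strain (his3Δ1 leu2Δ0 met15Δ0 ura3Δ0) in which that protein carried a TAP tag next to a HIS5 marker. All 5 strains lacked a working URA3 and grew at 30 °C in synthetic defined medium. Per the labels' protocols, 200 µM 4-thiouracil was added when indicated, and 365 nm light was given 4 times, each at 150 mJ/cm2. Lysates were digested with RNase T1, which cuts after G. mRNA levels came from 2 samples of strain BY4742 labelled puf3Δ, with 1 joined RPKM value per gene (reads scaled to gene length and library depth). These samples also grew at 30 °C and are titled SD. Their labels give both a UV treatment and an extract step without UV crosslinking, so their exposure is not clear. PUF3 itself was at 23.6 RPKM there, and no wild-type sample was used to say whether that is reduced. No untagged or uncrosslinked library was used here, and with 1 library per protein no value below has a replicate error, so no test was made.

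Puf proteins bind short elements, mostly in 3' untranslated regions (3' UTRs), and influence the stability, translation or location of the mRNA. Yeast Puf4 and Puf5 are known to prefer elements that begin with UGUA. Permeases such as FCY2, FUR4 and FUI1 bring preformed bases and nucleosides into the cell for salvage, and PHO84 is induced when phosphate is scarce.

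The 4 mRNAs, chosen with these values known, differed in the libraries that had sites in them. FCY2 was bound in Puf1, Puf4 and Puf5, FUI1 in Puf5 alone, and PHO84 in Puf2, Puf4 and Puf5, while FUR4 had no site in any library. By RPM (reads relative to library depth) FCY2 was highest in Puf1, PHO84 in Puf4 and FUI1 in Puf5. Of the 15 sites 7 were in 3' UTRs, and these held 94.1% of the 17130 RPM of all 15, of which 2 sites alone gave 6813 and 5994 RPM. Among the libraries with a site in these genes, the 3' UTR share of all mRNA sites ran from 30.1% in Puf4 to 59.4% in Puf5. The 3' UTR share of RPM over all mRNA sites ran from 55.5% in Puf2 to 79.4% in Puf5. The 7 coding sites had between 0.73 and 242.8 RPM, and the remaining site was in a 5' UTR.

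FCY2 lies on chromosome V, with its coding sequence at 266512 to 268113 on the minus strand (sacCer3, RefSeq gene bounds). Its Puf1 site covered 266409 to 266430 in the 3' UTR, with 5994 RPM. This was the 15th strongest of the 430 mRNA sites in Puf1, where the median mRNA site had 1227 RPM. The Puf4 site in the same 3' UTR covered 266431 to 266451, with 931.6 RPM, and ranked 182 of 1773. The Puf5 site there covered 266383 to 266407, with 251.6 RPM, and ranked 390 of 2230.

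The FCY2 3' UTR sites of the 3 libraries lay end to end and did not overlap. Along the RNA, Puf4 came first, from 61 to 81 nt past the coding end, then Puf1 from 82 to 103 nt, then Puf5 from 105 to 129 nt. The Puf4 site began 1 position after the last position of the Puf1 site on the chromosome, and the Puf1 site began 2 positions after the last of the Puf5 site. The files do not say if positions start at 0 or 1, so distances to coding ends are good to 1 nt. All libraries were cut with RNase T1, and its part in where these sites end was not tested.

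**Figure D1:**
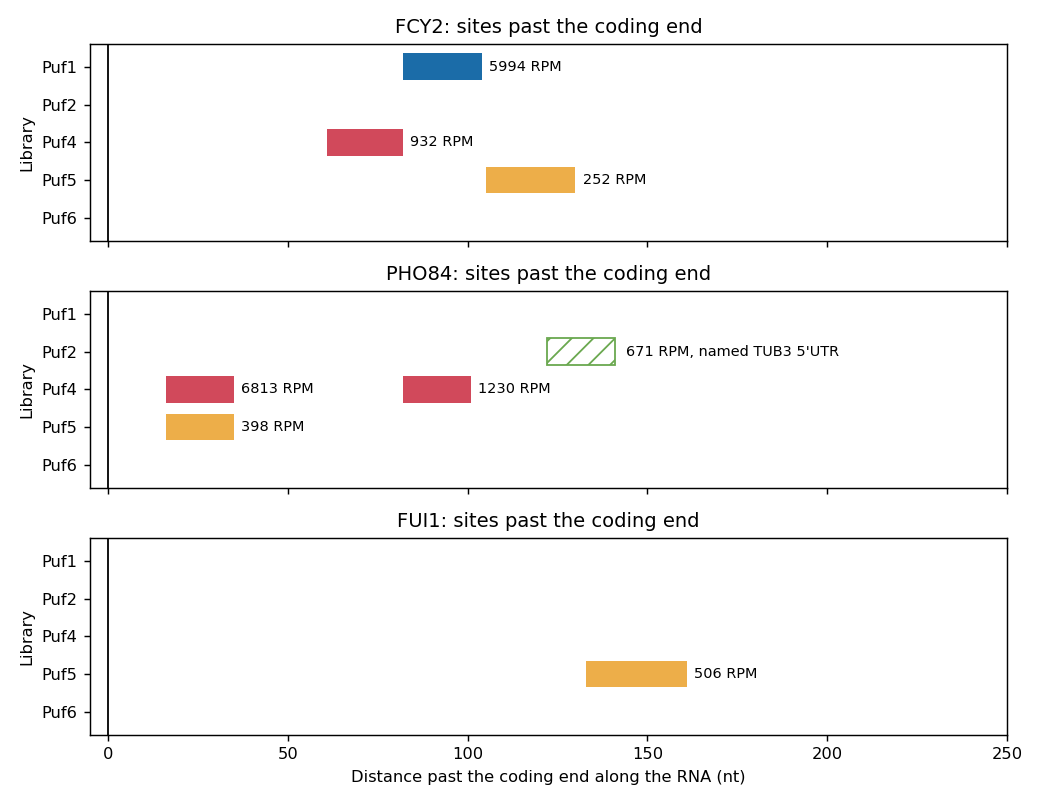
Called sites past the coding end of FCY2, PHO84 and FUI1 (x axis, nt along the RNA), with 1 row per library and the RPM of each site beside its bar. The hatched bar is a Puf2 site named for the next gene, TUB3. In FCY2 the 3 sites abut, from 61 to 129 nt, while in PHO84 the Puf4 and Puf5 sites at 16 to 34 nt have the same bounds.

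Outside the 3' UTR, FCY2 had 3 coding sites and 1 site in the 5' UTR. Puf4 had 162.3 RPM at 266648 to 266684, near the end of the coding sequence, and 0.73 RPM at 266972 to 266998. The value of 0.73 RPM was shared by 9 other Puf4 sites and ranked 1768 of 1773 mRNA sites. Puf5 had 127.2 RPM at 267018 to 267036, which began 20 positions from the weak Puf4 site, and 126.4 RPM at 268155 to 268182, from 69 to 42 nt before the coding start. In Puf4 the 3' UTR site was 5.74 times the stronger coding site, whereas in Puf5 it was 1.98 times the coding site, and the 3' UTR held 49.8% of the Puf5 sum.

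Summed over its sites, FCY2 reached 5994 RPM in Puf1. The Puf4 sum was 1095 RPM and the Puf5 sum 505.2 RPM, with no site in Puf2 or Puf6. It ranked 16 of 321 bound background genes in Puf1, 145 of 1089 in Puf4 and 200 of 1378 in Puf5. As background served the 5521 protein-coding genes whose RPKM reached 1 or more. The Puf1 sum was 5.48 times that of Puf4 and 11.9 times that of Puf5.

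Which library was highest for FCY2 depended on the scale. As a share of all RPM in mRNA sites it was 0.936% in Puf1, 0.145% in Puf4 and 0.0862% in Puf5. When each sum was divided by the library's median mRNA site, Puf1 was at 0.564 times Puf4, so Puf4 was then the highest. That median was 1227 RPM in Puf1 and 207.1 RPM in Puf2, then 126.3 RPM in Puf4, 118.8 RPM in Puf5 and 40.5 RPM in Puf6. This scale sets a sum, over 1 FCY2 site in Puf1 and 3 in Puf4, against single sites. Divided instead by the median sum of bound genes, FCY2 was at 4.50 in Puf1, 4.96 in Puf4 and 3.64 in Puf5. Puf4 was then only slightly above Puf1. No spread between replicates exists to say which of these differences would repeat.

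PHO84 lies on chromosome XIII, with its coding sequence at 24037 to 25800 on the minus strand. Its strongest site was that of Puf4 at 24003 to 24021 in the 3' UTR, with 6813 RPM, which ranked 5 of 1773 mRNA sites. A second Puf4 site in the 3' UTR, at 23937 to 23955, had 1230 RPM and ranked 97. Puf5 was called at 24003 to 24021 as well, with 398.4 RPM, ranking 233 of 2230.

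The shared PHO84 site lay 16 to 34 nt past the coding end, and its RPM in Puf4 was 17.1 times that in Puf5. Of the 24 pairs of sites from different libraries within FCY2 and PHO84, this was the only overlap of at least 1 nt, and its bounds were the same on both sides. Over all mRNA sites, 34 had the same bounds in Puf4 and Puf5, which is 1.92% of the Puf4 sites and 1.52% of the Puf5 sites. For 3' UTR sites of all genes, the median distance past the coding end was 60 nt in Puf4 (quartiles 31 and 103 nt) and 66 nt in Puf5 (quartiles 34 and 118 nt). The shared PHO84 site was thus nearer to the coding end than the lower quartile of either library. The Puf4 site of FCY2, at 61 nt, was close to the median, and the Puf1 site, at 82 nt, lay between the Puf1 median of 67 nt and its upper quartile of 122 nt.

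Coding sites of PHO84 were weaker. Puf4 had 242.8 RPM at 25302 to 25330 and 116.3 RPM at 24612 to 24643, while Puf2 had its only site named for PHO84 at 24221 to 24249, with 171 RPM. The Puf2 value was below the median mRNA site of that library, ranking 575 of 1007. Among Puf2 coding sites alone it ranked 217 of 583, above their median of 139.8 RPM. In Puf2, 1 other site had both the RPM and the length of the PHO84 site.

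A further Puf2 site, with 670.5 RPM, lay at 23897 to 23915 on the same strand. The authors named it as 5' UTR of TUB3, an alpha-tubulin gene and the next gene on that strand. It was 122 nt past the PHO84 coding end and 214 nt before the TUB3 coding start, and 22 positions from the second Puf4 site of PHO84. With this site counted for PHO84, its Puf2 sum would be 841.5 RPM in place of 171 RPM. Which of the 2 transcripts the reads came from was not tested.

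Summed over its sites, PHO84 reached 8402 RPM in Puf4, beside 398.4 RPM in Puf5 and 171 RPM in Puf2, with no site in Puf1 or Puf6. The Puf4 sum ranked 5 of 1089 bound genes and was 1.11% of all mRNA site RPM in that library. It was 21.1 times the Puf5 sum, and 9.98 times the highest other library when the site named for TUB3 was included. In Puf5, PHO84 ranked 250 of 1378, and in Puf2 it ranked 430 of 648. Of the Puf4 sum, 95.7% was in the 3' UTR.

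**Figure D2:**
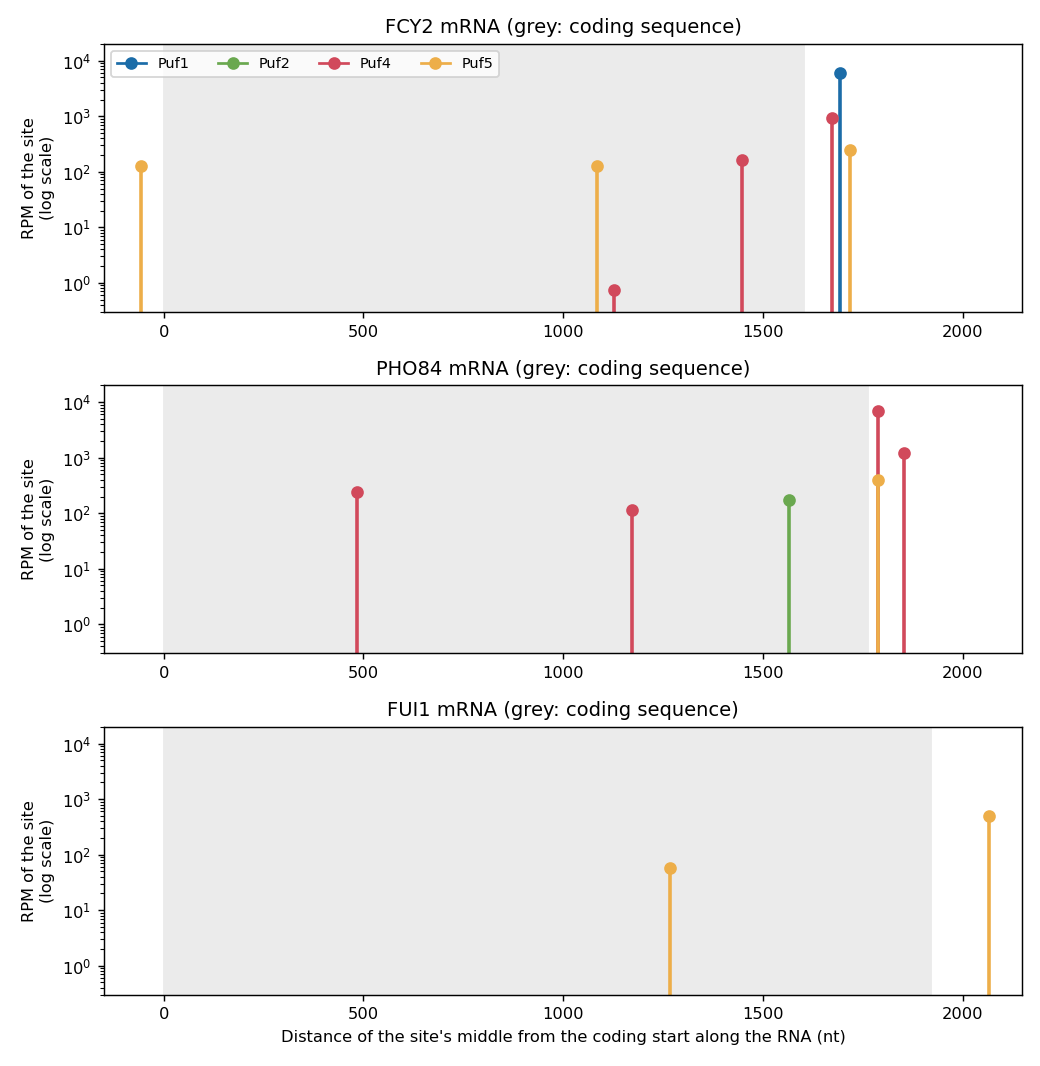
RPM of every called site (y axis, log scale) along FCY2, PHO84 and FUI1 mRNA (x axis, nt from the coding start to the middle of the site), coloured by library, with the coding sequence in grey. The highest point of each gene is past the coding end: 5994 RPM in Puf1 for FCY2, 6813 RPM in Puf4 for PHO84 and 505.8 RPM in Puf5 for FUI1.

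FUI1 lies on chromosome II, with its coding sequence at 138341 to 140260 on the minus strand, and Puf5 was the only library with sites there. The 3' UTR site at 138181 to 138208 had 505.8 RPM and ranked 188 of 2230. It lay 133 to 160 nt past the coding end, farther than the upper quartile of Puf5 3' UTR sites. A coding site at 138981 to 139004 had 58.4 RPM, below the median of 109 RPM for Puf5 coding sites. The 3' UTR site was 8.66 times the coding site. The sum of 564.2 RPM ranked 180 of 1378 bound genes.

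In Puf5, the library in which all 3 bound genes had sites, their sums were close: 564.2 RPM for FUI1, 505.2 RPM for FCY2 and 398.4 RPM for PHO84. The median bound gene of that library had 138.7 RPM. This contrasts with Puf4, where PHO84 had 8402 RPM, FCY2 had 1095 RPM and FUI1 had no site, beside a median of 220.5 RPM. The closeness in Puf5 was one of sums. By strongest site, FUI1 had 505.8 RPM, PHO84 398.4 RPM and FCY2 251.6 RPM there. Per RPKM of mRNA level, the Puf5 sums were 5.03 for FUI1, 1.14 for FCY2 and 0.859 for PHO84.

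**Figure D3:**
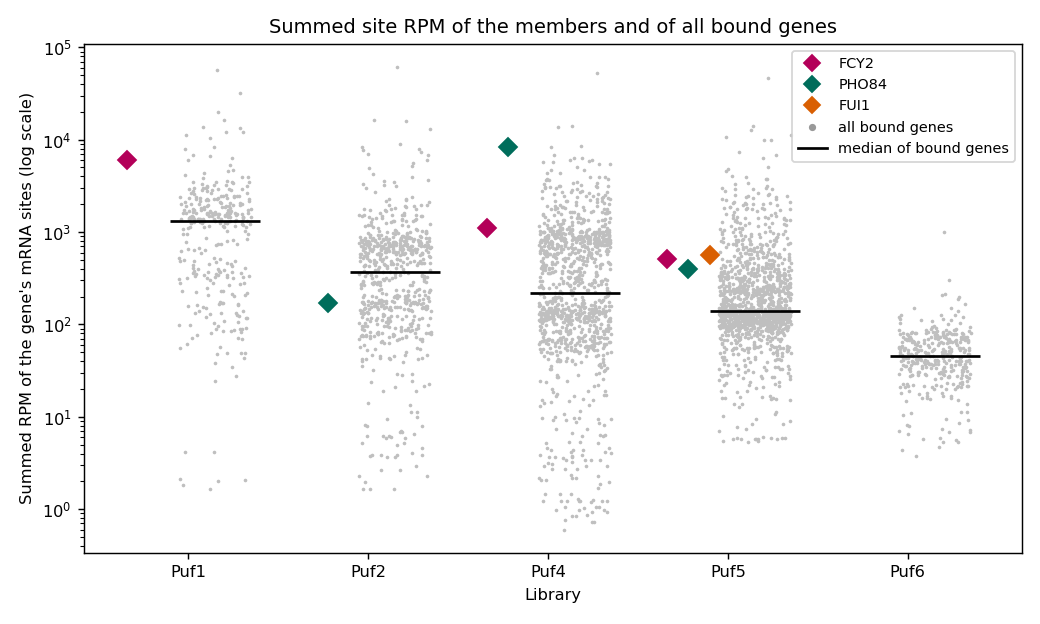
Summed RPM of mRNA sites per gene (y axis, log scale) in each library, with FCY2, PHO84 and FUI1 as diamonds, all bound background genes as grey points and their median as a line. PHO84 in Puf4 (8402 RPM) and FCY2 in Puf1 (5994 RPM) sit near the top of their libraries, while PHO84 in Puf2 (171 RPM) is below the median.

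FUR4 lies on chromosome II, with its coding sequence at 281443 to 283344 on the plus strand. None of the 5 lists had a site with its name, and none had a site on its strand from 200 nt before the coding start to 250 nt past the coding end. In the same window around FCY2, FUI1 and PHO84, the Puf2 site named for TUB3 was the sole same-strand site with another name. No site lay on the opposite strand in the windows of any of the 4 genes.

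The level of each mRNA, taken from the samples labelled puf3Δ, was 463.6 RPKM for PHO84, 441.3 RPKM for FCY2, 112.1 RPKM for FUI1 and 26.6 RPKM for FUR4. The median background gene was at 60.4 RPKM. PHO84 and FCY2 were above 92.5% and 92.2% of the background genes, FUI1 above 71.3% and FUR4 above 22.4%. The unbound gene was thus the lowest of the 4, with FCY2 at 16.6 times and FUI1 at 4.21 times its level. These levels come from another strain and may differ from those of the tagged strains. That strain was of the other mating type and was labelled as deleted for a Puf protein.

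Of the 4 genes, Puf1 bound 1, Puf2 bound 1, Puf4 bound 2, Puf5 bound 3 and Puf6 bound 0. Of all background genes, Puf1 bound 5.81%, Puf2 11.7%, Puf4 19.7%, Puf5 25.0% and Puf6 6.34%. The genes were picked for their binding, so nothing is read from these counts. A site of any library was found in 42.1% of background genes. That share was 89.9% in the tenth of genes with the highest RPKM, which holds FCY2 and PHO84, 51.5% in the tenth that holds FUI1 and 29.7% in the tenth that holds FUR4.

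Relative to mRNA level, the site RPM per RPKM was 18.1 for PHO84 in Puf4, beside a median of 1.31 over bound genes, and ranked 69 of 1089. For FCY2 it was 13.6 in Puf1 (median 3.37, rank 76 of 321), 2.48 in Puf4 (rank 403 of 1089) and 1.14 in Puf5 (median 1.37, rank 748 of 1378). For FUI1 it was 5.03 in Puf5 and ranked 222 of 1378. FUI1 was therefore above the Puf5 median by this ratio, while FCY2 and PHO84 (0.859, rank 859) were below it. In Puf2, PHO84 had 0.369 beside a median of 1.22.

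**Figure D4:**
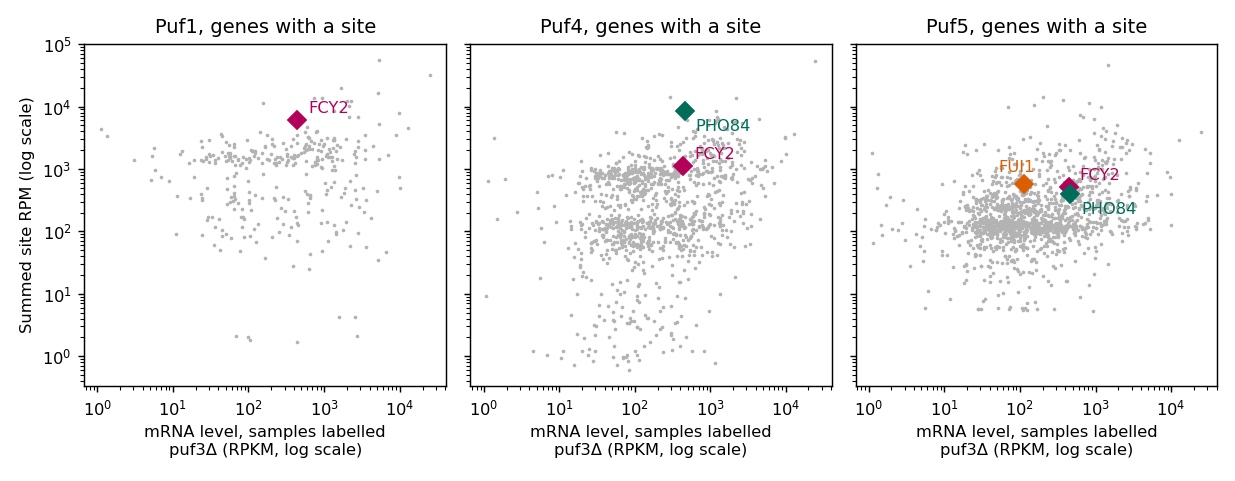
Summed site RPM (y axis, log scale) against mRNA level in the samples labelled puf3Δ (x axis, RPKM, log scale) for genes with a site in Puf1, Puf4 and Puf5, with FCY2, PHO84 and FUI1 marked. PHO84 is high for its level in Puf4, at 18.1 RPM per RPKM beside a median of 1.31, while in Puf5 it has 0.859.

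A list of 11 transporters of bases, nucleosides and related vitamins included FCY2, FUI1 and FUR4. Of the 11, 5 (45.5%) had a site in any library, against 42.1% of all background genes, and of the 8 other than these members 3 had one. Among those 8, Puf1, Puf5 and Puf6 bound 1 each (background 5.81%, 25.0% and 6.34%), and Puf2 and Puf4 bound 0 (background 11.7% and 19.7%). The 3 were THI7, a thiamine transporter, with 3353 RPM in the 3' UTR in Puf1, TPN1, a vitamin B6 transporter, with 133.4 RPM in the coding sequence in Puf5, and FCY21 with 72.3 RPM in the coding sequence in Puf6. FCY21 and FCY22 are close relatives of FCY2, and FCY22 had no site. No FCY2 site had the same RPM and length as another site of its library, except the Puf4 coding site with 162.3 RPM, which had 1 such match outside these relatives. FUN26, NRT1, DAL4 and THI72 had no site either, and their levels ran from 2.35 RPKM for DAL4 to 62.5 RPKM for FUN26.

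Of 28 genes of phosphate uptake, storage and signalling, 12 (42.9%) had a site in any library, against 42.1% of all background genes. A Puf4 site was present in 11 (39.3%, background 19.7%) and a Puf5 site in 9 (32.1%, background 25.0%). Puf1 and Puf2 bound 2 each (7.14%, background 5.81% and 11.7%), and Puf6 bound 1 (3.57%, background 6.34%). Without PHO84, the counts were 10 of 27 in Puf4 and 8 of 27 in Puf5. The list was chosen with earlier results of these data known and was not tested.

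By highest sum, PHO84 was followed by VTC4 and VTC3, subunits of the vacuolar transporter chaperone, which makes polyphosphate as a phosphate store. VTC4 had 3690 RPM in Puf4, 1590 RPM in Puf5 and 200.2 RPM in Puf2. VTC3 had 2581 RPM in Puf1, then 831.7 RPM in Puf4 and at last 329.9 RPM in Puf5. By summed RPM these libraries came in the same order as for FCY2. In VTC3 only the Puf1 site was in the 3' UTR, whereas FCY2 had a 3' UTR site in each of these libraries. VTC1 had 827.5 RPM in a coding site of Puf4, and 801.8 RPM in Puf5 over sites in the coding sequence and the 3' UTR. VTC2 had 118.0 RPM in Puf4, and VTC5 had no site. PHO81, the inhibitor of the cyclin-dependent kinase Pho85 when phosphate is scarce, had 913.4 RPM in 1 coding site of Puf4. Of the other phosphate carriers, the low-affinity PHO90 had 126.1 RPM in Puf4 beside 132.5 RPM in Puf5, while PHO87, PHO89 and PHO91 had no site. Neither the transcription factor genes PHO4 and PHO2 nor PHO80 and PHO85 had a site.

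Of 13 genes for the salvage of imported bases 12 were in the background, and 5 of them (41.7%) had a site in any library, close to the 42.1% of all background genes. Of the 12, Puf5 bound these same 5 (41.7%, background 25.0%) and Puf4 bound 3 (25.0%, background 19.7%). Puf1 and Puf2 bound 1 each (8.33%, background 5.81% and 11.7%), and Puf6 bound 0 (background 6.34%). The median level of the 12 was 162.2 RPKM, beside 60.4 RPKM for the background, so these shares compare genes of unlike mRNA level. FUR1, the uracil phosphoribosyltransferase, had 777.4 RPM in Puf4 and 153.8 RPM in Puf5. HPT1, which salvages hypoxanthine and guanine, had 1490 RPM in Puf1, while Puf4 had 120.2 RPM and Puf5 had 121.5 RPM. APT1, an adenine phosphoribosyltransferase, had 1357 RPM in Puf5 and 59.0 RPM in Puf4. XPT1 (294.2 RPM) and the adenine deaminase gene AAH1 (183.2 RPM) were highest in Puf5 as well, while FUR1 was highest in Puf4 and HPT1 in Puf1. The cytosine deaminase gene FCY1 and the uridine kinase gene URK1 had no site.

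**Figure D5:**
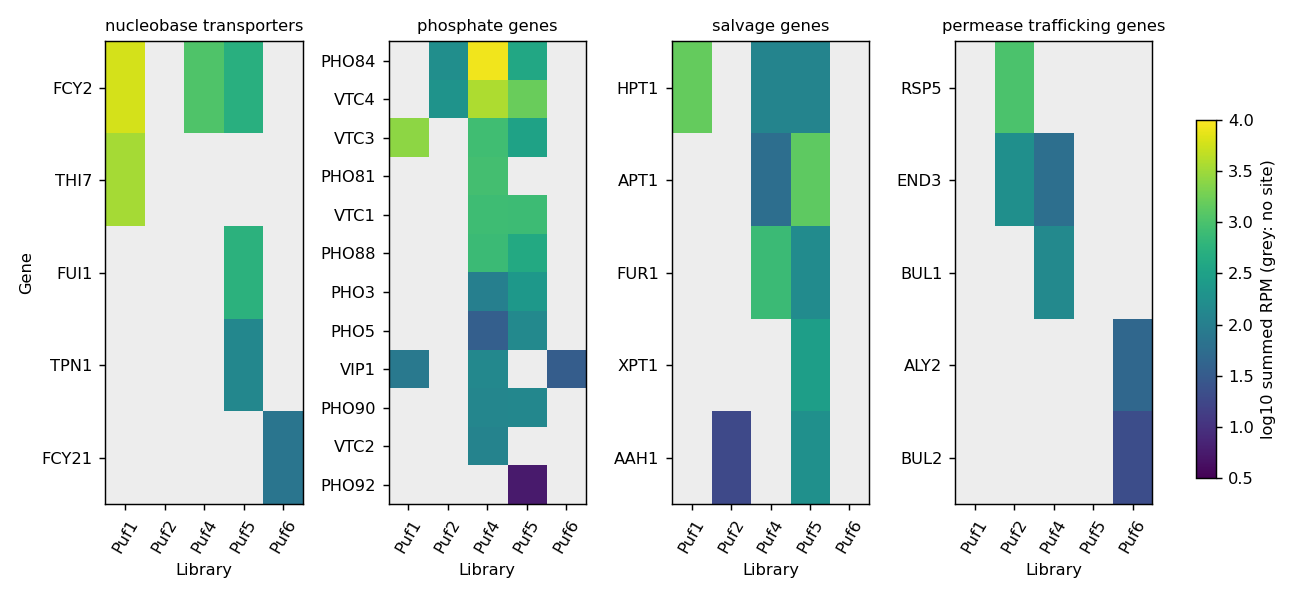
log10 of the summed site RPM (colour) by library (columns) for the genes with a site in 4 lists: base and nucleoside transporters, phosphate genes, salvage genes and permease trafficking genes. Grey means no called site. PHO84 in Puf4 (8402 RPM) and FCY2 in Puf1 (5994 RPM) are the highest values shown. Of all 28 phosphate genes in the list, 12 (42.9%) have a site in any library, beside 42.1% of background genes. A Puf4 site is present in 11 (39.3%, background 19.7%), or in 10 of 27 without PHO84. The lists were chosen with earlier results of these data known and were not tested.

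The genes nearest in profile were taken by Euclidean distance of log2(summed RPM + 1) over the 5 libraries, as a description. For FCY2 they were RPS7B (distance 1.09), VTC3 (1.42) and RPS10A (1.65), each with sites in Puf1, Puf4 and Puf5 and none in Puf2 or Puf6. For PHO84 they were SSA1 (1.25), SSA2 (1.58) and RPL35A (1.62), each highest in Puf4, with 4668, 3318 and 3163 RPM there. SSA1 and SSA2 are close copies, so their reads may be shared. For FUI1 they were RPH1 (563.2 RPM), MRPL8 (555.6 RPM) and BUB1 (574.7 RPM), bound in Puf5 alone. FUR4 had no site and so no profile.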

How the data were processed

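Sites of 5 CLIP libraries (Puf1, Puf2, Puf4, Puf5, Puf6) and mRNA levels of 2 samples labelled puf3Δ were used. The authors deposited 1 table of sites for each library, in which every site has bounds, a strand, a gene, a feature class and an RPM value. They deposited 1 RPKM column for both mRNA-seq samples. CASAVA 1.8.2 (for CLIP), Bowtie 0.12.7 and sacCer3 are named per the submitters' processing notes. The site caller, its threshold, the reads the RPM divisor counts, how multiply mapped reads were handled and how the mRNA samples were joined are not given in the sources used here. Read counts and depth are therefore unknown, and no interval was computed. Per library, site RPM added up to between 420222 (Puf6) and 898509 (Puf4).

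Gene names, biotypes and coding bounds came from a RefSeq table of the R64 assembly, which matched 5893 of 6550 genes. A gene was bound when at least 1 site in its coding sequence, intron or UTR carried its name. Sums, ranks, distances and overlaps were computed in Python 3.11.15 with pandas 2.3.3. The code for sums, overlaps and nearest profiles was tested on simulated data, while ranks and distances to coding ends were not. Members, lists and the rule for named genes (the 4 members, the 3 nearest genes to each, and at most 5 bound genes per list) were chosen with earlier results of these data known. List genes beyond the rule, and those named as having no site, were named after their values were seen.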

Additional observations from a re-analysis of the deposited data

How the results depend on the processing

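With 1 library per protein, leaving out a replicate was not possible. No paired analysis was possible because each protein has 1 library and the mRNA samples share 1 column. The planned search for sequence elements was not run, since no genome was used here. A value counts as moved when it changes by more than 1.5 times. Of 99 alternative values 83 did not move. Some of these could not move, so the tally is no measure of stability. They include member counts under other RPKM minimums, ratios with 1 added to the RPKM, and the strongest site where a gene had a single site. With the median mRNA site as scale, the FCY2 ratio of Puf1 over the highest other library turned to 0.564. By rank within the library it was 2.67, and for PHO84 the ratio of Puf4 was 39.5. With sites near the gene under any name, an alternative chosen after seeing the data, PHO84 had 841.5 RPM in Puf2 and its Puf4 ratio was 9.98. With the strongest site alone, FCY2 in Puf5 had 251.6 RPM, or 0.570 RPM per RPKM. With 3' UTR sites alone, FCY2 in Puf5 had 251.6 RPM, PHO84 in Puf2 had 0 RPM, and 0 of the 4 genes were bound in Puf2. The share of background genes bound was then 2.70% in Puf1, 4.64% in Puf2, 8.35% in Puf4 and 1.49% in Puf6. With equal numbers of sites per library (899) it was 10.7% in Puf4 and 9.31% in Puf5. The 3 nearest genes of FCY2, FUI1 and PHO84 were the same with a pseudocount of 10.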

Other observations

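Genes that act in the removal of permeases from the plasma membrane formed a further list, chosen with earlier results of these data known. Of 16 such genes, 5 (31.3%) had a site in any library, against 42.1% of all background genes. Puf2, Puf4 and Puf6 bound 2 each (12.5%, background 11.7%, 19.7% and 6.34%), and Puf1 and Puf5 bound 0 (background 5.81% and 25.0%). The median level of the 16 was 40.9 RPKM, beside 60.4 RPKM for the background. RSP5, the ubiquitin ligase that marks permeases such as FUR4 for uptake into the cell, had 1009 RPM in Puf2, in 2 sites of its 3' UTR. END3, which acts in endocytosis, had 175.3 RPM in Puf2 and 60.5 RPM in Puf4. The Rsp5 adaptor genes BUL1 (139.8 RPM in Puf4), BUL2 (21.2 RPM in Puf6) and ALY2 (46.0 RPM in Puf6) had 1 coding site each.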
